A study of Homo sapiens with 6 samples.

Results

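The genes described here are 10 genes of mitochondrial fusion and fission, taken by name from a table of 35035 genes, and all 10 were found in it. They were MFN1, MFN2, OPA1, OMA1, YME1L1, DNM1L, FIS1, MFF, MIEF1 and MIEF2. RNA was sequenced from HK-2, an immortalised line of human proximal tubule epithelial cells, in 3 libraries of wild-type cells given an empty-vector plasmid and 3 of cells given a plasmid that overexpresses circAASS, which its name places as a circle of AASS transcript. All 6 libraries, the controls included, came from cells kept at 1% oxygen (24 h) before a reoxygenation of 12 h, so that no value stands for cells at normal oxygen. The series' design text places the profiling at 24 h after the treatment, and the time on the sample labels is the one used here. Transfection was of a single line, and the labels tie the repeats to no separate cultures, so that every p-value measures the spread between these libraries, which may be technical.

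Mitochondria form a network that is joined by fusion and cut by fission. MFN1 and MFN2 fuse the outer membranes and OPA1 the inner ones; the inner-membrane proteases OMA1 and YME1L1 cut OPA1, and OMA1 is the one that stress activates. DNM1L encodes DRP1, a dynamin-like GTPase of the cytosol that constricts mitochondria once receptors on the outer membrane, among them MFF, MIEF1, MIEF2 and FIS1, have recruited it. In the proximal tubule, a tissue rich in mitochondria, fragmentation of the network is a known feature of ischaemic injury. The data are mRNA levels summed over all transcripts of a gene; they hold no protein, cleavage or splice form.

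The library totals ran from 45148425 to 58179563 reads, with mates of a pair mostly counted apart. AASS, the host gene, had a log2 fold change of -0.37 (SE 0.13) that did not pass (limma, adjusted p = 0.0677), and circAASS itself was not measured, so the labels are not checked by these values. Of 17 proximal tubule markers in the table, 9 averaged at least 1 RPKM (reads scaled to gene length and library total), among them PAX8, CDH6 and KRT18. LRP2, CUBN, AQP1, ANPEP and SLC34A1, which mark the mature tubule, stayed at or below 0.0677 RPKM in every library. Other markers of the list were higher, with GGT1 at 6.80 to 9.75 RPKM and MME at 0.164 to 0.309. The summed level of the tubule markers was 384 to 400 RPKM with empty vector and 428 to 472 with circAASS, and of 12 tested 5 rose and 3 fell. Of the fibroblast, endothelial and distal tubule markers only COL1A1 averaged over 1 RPKM, and the leukocyte list at 78.6 to 106 RPKM was carried by the lysosomal protein CD68, with PTPRC at or below 0.0106 in every library. RN7SK, a nuclear RNA with no poly(A) tail, stood at 34.1 to 44.7 RPKM with empty vector and 55.6 to 190 with circAASS, and transcripts of the mitochondrial genome took 8.86% to 9.03% and 9.09% to 10.1% of the reads. The part of these differences in the results below was not tested. In bulk RNA, fewer cells of a kind and less RNA per cell cannot be told apart.

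Of the 10 genes 4 passed the test between the groups (limma on log2(RPKM + 0.1), Benjamini-Hochberg adjusted p under 0.05 over 19350 tested genes). OMA1, FIS1 and MIEF2 fell with the circAASS plasmid and MIEF1 rose. The background was high, since 32.3% of all tested genes passed, 16% higher and 16.3% lower; 4 of 10 lies near that share and is not a result about this group of genes. The median log2 fold change was 0.03 over the 10 genes and -0.01 over all tested genes. In deposited RPKM the groups did not overlap for 5 of the 10, namely OPA1, OMA1, FIS1 and MIEF2 on the lower side and MIEF1 on the higher side, beside 47.5% of all tested genes (30.3% lower, 17.1% higher). The fold changes rest on RPKM rescaled by factors from 0.958 to 1.036 per library.

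**Figure D1:**
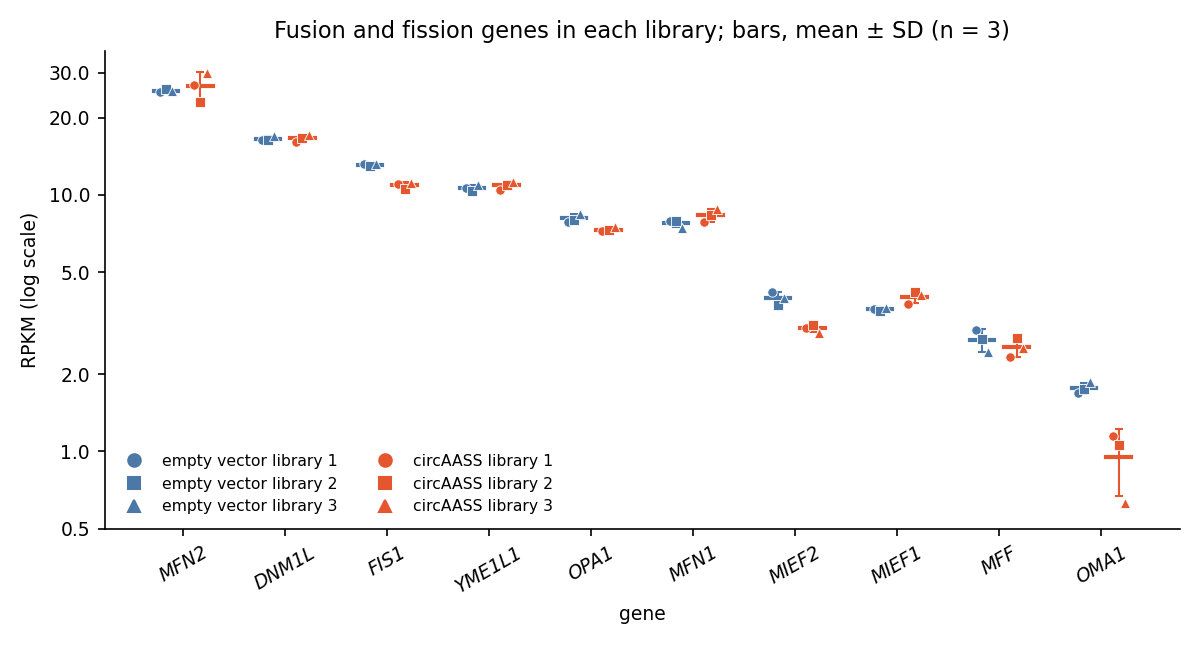
RPKM (log axis) of the 10 genes in each of 6 libraries, ordered by their mean with empty vector; points are libraries and bars the mean ± SD (n = 3). MFN2 was the highest in each group and OMA1 the lowest, and the circAASS libraries of OMA1 spread from 0.630 to 1.15 RPKM.

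**Figure D2:**
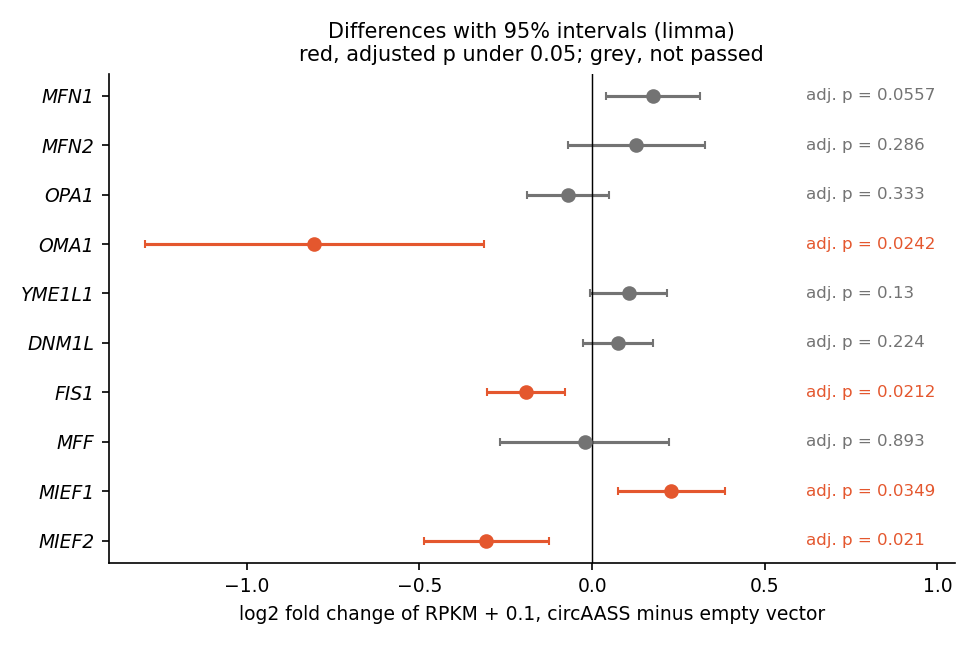
Log2 fold change of RPKM + 0.1, circAASS minus empty vector, with its 95% interval for each gene; red marks an adjusted p under 0.05. The intervals of OMA1, FIS1 and MIEF2 lay below 0 and that of MIEF1 above it, and that of OMA1 was the widest, from -1.30 to -0.31.

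Among the 3 fusion GTPases none passed. MFN2 (chromosome 1, 11980181 to 12013514, GRCh38), which also tethers mitochondria to the endoplasmic reticulum, was the most abundant of the 10 genes. The empty-vector libraries held 25.1, 26.0 and 25.4 RPKM of it, the circAASS libraries 26.8, 23.1 and 29.97. The circAASS libraries lay on either side of the empty-vector range, with a coefficient of variation of 12.99% against 1.74%. The log2 fold change was 0.13 (95% interval -0.07 to 0.33, adjusted p = 0.286, limma); without circAASS library 2 it was 0.22 and passed (adjusted p = 0.0255). Without circAASS library 3 it was 0.05 (0.648), and with library size as the sole scaling 0.06 (0.672). MFN1 (chromosome 3, 179347692 to 179394931), its paralog and the stronger of the mitofusins in tethering outer membranes, stood at 7.88, 7.89 and 7.44 RPKM with empty vector. It stood at 7.83, 8.32 and 8.83 with circAASS, where only library 1 fell within the empty-vector range. Its log2 fold change of 0.18 (95% interval 0.04 to 0.31) missed the threshold (limma, adjusted p = 0.0557). It passed when libraries were scaled by the median of ratios (adjusted p = 0.0491) or when only genes averaging at least 1 RPKM were tested (0.0465). With library size as the sole scaling its log2 fold change was 0.10 (0.257), and with single libraries dropped it never passed (0.0502 to 0.171).

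OPA1 (chromosome 3, 193593144 to 193697823), which fuses the inner membrane and holds cristae in shape, stood at 7.86, 7.99 and 8.44 RPKM with empty vector and at 7.24, 7.27 and 7.47 with circAASS. The deposited values did not overlap, and the circAASS libraries were the lower. After rescaling, the log2 fold change was -0.07 (95% interval -0.19 to 0.05, adjusted p = 0.333, limma), and with library size as the sole scaling it was -0.14 (adjusted p = 0.0928). An antisense gene covers 2.30% of its exon bases.

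Of the proteases that cut OPA1, OMA1 fell and YME1L1 did not pass; the difference between them was not tested. OMA1 (chromosome 1, 58415384 to 58546802), the stress-activated enzyme, fell by the most of the 10 genes. It stood at 1.69, 1.75 and 1.86 RPKM with empty vector, from 284, 331 and 363 reads. With circAASS it stood at 1.15, 1.059 and 0.630 RPKM, from 205, 229 and 111 reads. The groups did not overlap, and circAASS library 3 lay well under libraries 1 and 2: the exact 95% Poisson interval of its reads, 0.518 to 0.759 RPKM, did not reach theirs. That interval covers counting error alone and is too narrow where mates are counted apart. The means were 1.77 ± 0.0863 and 0.946 ± 0.277 RPKM (SD, n = 3 each), and the log2 fold change was -0.80 (SE 0.21, adjusted p = 0.0242, limma). Without circAASS library 3 it was -0.55 (adjusted p = 0.0167) and with a pseudocount of 1 RPKM -0.47 (0.017); it no longer passed with empty-vector library 1, 2 or 3 dropped (0.0583, 0.0667 and 0.0706) and with no filter on low genes (0.0639). DAB1 covers 6.91% of the exon bases of OMA1 on the same strand.

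YME1L1 (chromosome 10, 27110112 to 27155266), the ATP-dependent protease that cuts OPA1 in unstressed cells, stood at 10.6, 10.4 and 10.96 RPKM with empty vector. It stood at 10.5, 10.97 and 11.2 RPKM with circAASS, and the groups overlapped. The log2 fold change was 0.11 (95% interval -0.01 to 0.22, adjusted p = 0.13, limma), and with library size as the sole scaling it was 0.03 (0.669). MASTL lies antisense to 6.04% of its exon bases. Within a library, the RPKM of YME1L1 was 6.27, 5.94 and 5.89 times that of OMA1 with empty vector and 9.13, 10.4 and 17.8 times with circAASS. These ratios did not overlap; they were not tested, and they share the values of OMA1 given above.

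The fission GTPase itself did not pass. DNM1L (chromosome 12, 32679200 to 32745650) stood at 16.4, 16.4 and 16.95 RPKM with empty vector and at 16.0, 16.7 and 17.1 with circAASS. The circAASS libraries reached from just below to just above the empty-vector range. The log2 fold change was 0.08 (95% interval -0.03 to 0.18, adjusted p = 0.224, limma). With library size as the sole scaling it was 0.0029 (SE 0.05, adjusted p = 0.971).

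Of the 4 receptors for DRP1, MIEF2 and FIS1 fell, MIEF1 rose and MFF did not pass. FIS1 (chromosome 7, 101239458 to 101252316), a small tail-anchored protein of the outer membrane, stood at 13.2, 12.98 and 13.2 RPKM with empty vector and at 11.1, 10.5 and 11.1 with circAASS. The groups were far apart against their own spread, with means of 13.1 ± 0.108 and 10.9 ± 0.342 RPKM (SD, n = 3 each). On the rescaled log2 scale FIS1 fell by 0.19 (SE 0.05, adjusted p = 0.0212, limma). It no longer passed with empty-vector library 1, 2 or 3 dropped (0.0637, 0.066 and 0.0639), with circAASS library 3 dropped (0.0558) and without trend and robust estimation (0.0572). No other gene overlaps its exons.

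MIEF2 and MIEF1 are paralogs that bind DRP1 and gather it at division sites, and here they moved in opposite directions. MIEF2 (chromosome 17, 18260534 to 18266552) stood at 4.19, 3.72 and 3.96 RPKM with empty vector and at 3.03, 3.122 and 2.90 with circAASS. Each circAASS library was lower than each empty-vector library, and the log2 fold change was -0.31 (SE 0.08, adjusted p = 0.021, limma). MIEF1 (chromosome 22, 39499432 to 39518132) stood at 3.59, 3.51 and 3.63 RPKM with empty vector and at 3.76, 4.20 and 4.07 with circAASS. Each circAASS library was the higher, and the log2 fold change was 0.23 (SE 0.07, adjusted p = 0.0349, limma). MIEF2 no longer passed with empty-vector library 1, empty-vector library 3 or circAASS library 3 dropped (0.0675, 0.0589 and 0.0658). MIEF1 passed in 6 of the 14 alternative fits. The fits in which it did not include those with empty-vector library 1, 2 or 3 dropped (0.0736, 0.106 and 0.0879), with circAASS library 2 or 3 dropped (0.0874 and 0.08), with library size as the sole scaling (0.134) and with no filter on low genes (0.0647). Another gene on the same strand covers 2.82% of the exon bases of MIEF1.

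MFF (chromosome 2, 227325151 to 227357836), a tail-anchored receptor for DRP1, stood at 2.97, 2.74 and 2.44 RPKM with empty vector and at 2.34, 2.77 and 2.52 with circAASS. The groups overlapped, and MFF had the highest coefficient of variation of the 10 genes with empty vector, 9.95%. Its log2 fold change was -0.02 with a 95% interval of -0.27 to 0.22 (adjusted p = 0.893, limma), which as a fold spans 0.832 to 1.17.

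In RPKM the order of MIEF1 and MIEF2 changed without any rescaling, since both values come from the same library. RPKM is per length, with 7555 exon bases for MIEF1 and 3969 for MIEF2. In reads MIEF1 was the higher in every library of both groups, so that the order itself depends on these lengths. The shift of the ratio between the groups does not. MIEF1 stood at 0.859, 0.943 and 0.917 times the level of MIEF2 in the empty-vector libraries, below it in all 3. It stood at 1.24, 1.35 and 1.40 times in the circAASS libraries, above it in all 3. The ratios of this paragraph were not tested, and this one restates the values of MIEF1 and MIEF2 given above. The MFN2 to MFN1 ratio, by contrast, was 3.19, 3.29 and 3.41 with empty vector and 3.42, 2.77 and 3.39 with circAASS, with circAASS library 2 below the other libraries. In descending order of the mean with empty vector the genes ran MFN2, DNM1L, FIS1, YME1L1, OPA1, MFN1, MIEF2, MIEF1, MFF and OMA1; OPA1 and MFN1 were the only neighbours whose ranges overlapped. With circAASS the order was MFN2, DNM1L, FIS1, YME1L1, MFN1, OPA1, MIEF1, MIEF2, MFF and OMA1, and FIS1 and YME1L1 were the only neighbours with overlapping ranges, at 10.5 to 11.1 and 10.5 to 11.2 RPKM.

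**Figure D3:**
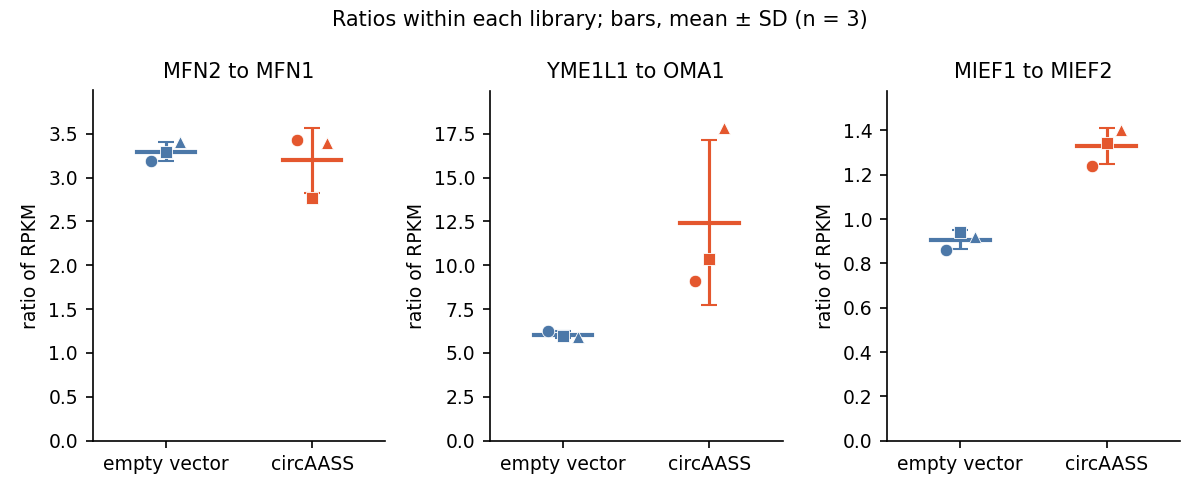
Ratio of the RPKM of 2 genes within each library (points), with the mean ± SD over 3 libraries of a group (bars); the vertical axes start at 0 and differ between panels. The MIEF1 to MIEF2 ratio lay under 1 in the empty-vector libraries and over 1 in the circAASS libraries, and the YME1L1 to OMA1 ratio of 17.8 belongs to circAASS library 3.

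The promoter windows of the 4 genes that passed are shown because those genes moved in different directions. Each is the 250 bases before the RefSeq start (GRCh38.p14), written along the strand of the gene, and capitals mark the motif matches named afterwards.
OMA1, chr1:58546727-58546976, minus strand: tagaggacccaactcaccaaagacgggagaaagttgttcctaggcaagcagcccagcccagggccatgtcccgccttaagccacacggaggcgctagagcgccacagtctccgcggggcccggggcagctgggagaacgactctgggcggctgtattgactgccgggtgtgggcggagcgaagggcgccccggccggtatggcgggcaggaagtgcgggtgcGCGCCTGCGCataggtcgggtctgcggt
FIS1, chr7:101245082-101245331, minus strand: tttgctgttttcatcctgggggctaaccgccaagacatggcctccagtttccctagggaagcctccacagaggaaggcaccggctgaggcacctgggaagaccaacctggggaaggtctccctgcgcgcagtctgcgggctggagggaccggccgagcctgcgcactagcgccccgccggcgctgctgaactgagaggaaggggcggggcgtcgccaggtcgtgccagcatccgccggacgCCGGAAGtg
MIEF1, chr22:39502040-39502289, plus strand: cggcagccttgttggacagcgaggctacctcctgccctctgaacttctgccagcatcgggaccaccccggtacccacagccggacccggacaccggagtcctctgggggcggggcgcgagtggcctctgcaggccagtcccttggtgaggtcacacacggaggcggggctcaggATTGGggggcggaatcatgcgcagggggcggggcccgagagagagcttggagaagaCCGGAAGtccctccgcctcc
MIEF2, chr17:18260412-18260661, plus strand: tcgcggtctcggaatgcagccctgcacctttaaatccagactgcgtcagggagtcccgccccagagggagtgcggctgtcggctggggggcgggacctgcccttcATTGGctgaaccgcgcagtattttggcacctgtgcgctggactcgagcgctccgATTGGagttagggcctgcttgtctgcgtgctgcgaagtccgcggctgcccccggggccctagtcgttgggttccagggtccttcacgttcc
The motifs were searched on each strand with exact letters: the consensus of NRF1, a factor of nuclear genes for mitochondria; CCGGAAG, an ETS core; TGACGTCA, the CRE; CACGTG, an E-box; AAGGTCA, an ERR element; and CCAAT. The NRF1 letters stood in the windows of OMA1 and OPA1, that is 2 of the 9 genes with a window, against 5.07% of 35116 windows of all genes. The ETS letters stood in 3 of 9 (MFN1, FIS1 and MIEF1; 8.52% of all windows), and CCAAT in 5 of 9 (MFN1, DNM1L, MFF, MIEF1 and MIEF2; 32.0%). MIEF1 and MIEF2 each held CCAAT, once and at 2 places, and only MIEF1 of the pair held the ETS letters. The letters of CRE, E-box and ERR element were in none of the 9 windows, and YME1L1 had no window. A match is a description of letters and no evidence of binding. The windows with NRF1 or ETS letters held 56.8% (MFN1) to 69.2% (MIEF1) G and C, beside a median of 58% over all windows. The part of base content in the matches was not tested. None of the searched motifs was shared by OMA1, FIS1 and MIEF2.

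The member with the smallest p, MIEF2, was set beside 123 other genes, the other members and the lists named next, by the root mean square distance of rescaled log2 values over 6 libraries, each gene centred on its own mean. The nearest were GABPB1, a subunit of a transcription factor of nuclear genes for mitochondria (distance 0.07), CHCHD6, a part of the cristae organising complex MICOS (0.07), and ARMCX1, an outer-membrane protein of mitochondrial transport (0.08). GABPB1 stood at 1.67, 1.65 and 1.57 RPKM with empty vector and at 1.35, 1.38 and 1.21 with circAASS, lower in every library. Genes picked as nearest to MIEF2 over these same libraries share its direction by the choice, so that their falls are no separate result. The log2 fold changes were -0.23 for GABPB1 and -0.18 for CHCHD6, neither of which passed (limma, adjusted p = 0.131 and 0.0773), and -0.28 for ARMCX1, which did (0.0459) but missed the threshold for 5 of the 6 libraries when that library was dropped (up to 0.135).

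Other genes of mitochondrial shape were read from 9 lists of 118 genes, of which 114 were tested. Of these 21 rose, 17 fell and 76 did not pass; the 33.3% that passed lies beside 32.3% of all tested genes. With library size as the sole scaling, 9 rose and 25 fell. Among 10 further adaptors and enhancers of fission, 3 rose and 1 fell. GDAP1, an outer-membrane protein tied to fission, fell from 3.49 ± 0.221 to 1.74 ± 0.122 RPKM (SD, n = 3 each; log2 fold change -0.90, adjusted p = 0.000798, limma). Those that rose were TBC1D15, which binds FIS1 (10.1 to 12.4 RPKM), MTFR1 (11.1 to 12.3) and the endosomal GTPase RAB7A (204 to 228). The calls of GDAP1 and TBC1D15 held in all 14 alternative fits, those of MTFR1 and RAB7A in 11 and 10. MTFR1 missed the threshold without empty-vector library 1 or 2 (0.0523 and 0.068), and RAB7A with empty-vector library 2, empty-vector library 3 or circAASS library 2 dropped (0.0605, 0.0815 and 0.0546).

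**Figure D4:**
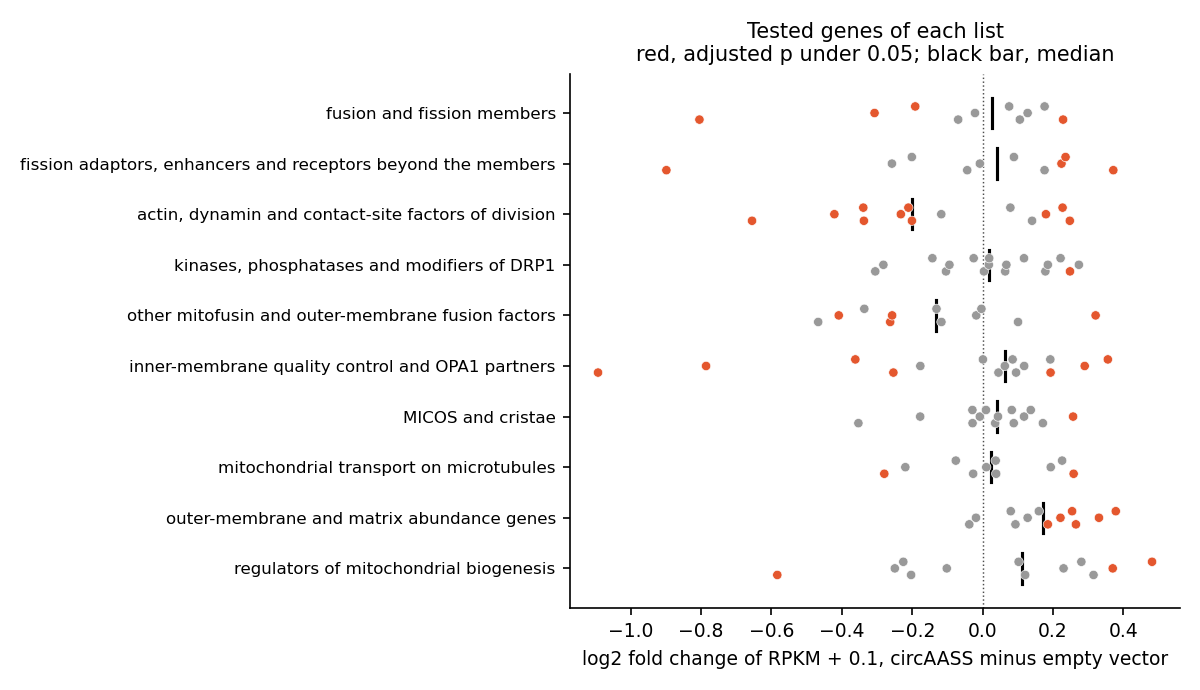
Log2 fold change of RPKM + 0.1, circAASS minus empty vector, of each tested gene (points) in the 10 genes and in 9 further lists; red marks an adjusted p under 0.05 and the black bar the median. The list of actin, dynamin and contact-site factors has its median at -0.20 and that of outer-membrane and matrix abundance genes at 0.17.

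Actin, dynamin and contact-site factors of division had the most calls. Of 13 tested genes 7 fell, 3 rose and 3 did not pass. The share that passed was 76.9%, beside 32.3% of all tested genes (16.3% lower, 16% higher). The median log2 fold change was -0.20 beside -0.01 for all tested genes. STX17, a SNARE protein that also acts where mitochondria meet the endoplasmic reticulum, fell from 3.80 ± 0.386 to 2.26 ± 0.207 RPKM (log2 fold change -0.65, adjusted p = 0.00378, limma). SYNJ2BP, an outer-membrane tether, fell from 4.72 to 3.33 RPKM. The actin-severing protein CFL1 (31.0 to 33.4 RPKM) and the lipid-transfer protein OSBPL8 (12.0 to 13.4) rose, with other genes covering 19.03% of the exon bases of CFL1. CFL1 missed the threshold without empty-vector library 2 or 3 (0.0628 and 0.0626), and OSBPL8 with empty-vector library 1, empty-vector library 3 or circAASS library 3 dropped (0.0523, 0.064 and 0.0565). With library size as the sole scaling 8 fell and none rose; with single libraries dropped 4 to 7 fell and 0 to 2 rose.

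Of 17 tested kinases, phosphatases and other modifiers of DRP1 1 passed, beside 32.3% of all tested genes. It was GSK3B, a kinase, which rose from 6.75 to 7.64 RPKM (adjusted p = 0.0154, limma). With empty-vector library 1 or circAASS library 3 dropped none passed, and with library size as the sole scaling 3 fell and none rose. Of 11 other factors of mitofusins and the outer membrane 3 fell and 1 rose: the deubiquitinase USP30 (1.29 to 0.899 RPKM) and the transport GTPases RHOT1 (3.68 to 2.92) and RHOT2 (6.59 to 5.22) fell, and VCP, an ATPase that extracts ubiquitinated mitofusins, rose from 34.6 to 41.1. The calls of USP30, RHOT1 and RHOT2 each failed for at least 5 of the 6 libraries when that library was dropped (highest adjusted p 0.105), whereas that of VCP held in all of them.

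Of 15 tested genes of inner-membrane quality control and partners of OPA1, 4 fell and 3 rose. For each list of this paragraph the share to set beside it is 32.3% of all tested genes (16.3% lower, 16% higher). TAZ, the older symbol of the cardiolipin acyltransferase tafazzin, fell from 1.34 ± 0.0706 to 0.549 ± 0.0609 RPKM (log2 fold change -1.09, adjusted p = 0.00117, limma), and SPG7, a subunit of the matrix-facing protease, fell from 7.29 to 5.37. The cardiolipin synthase CRLS1 rose from 10.2 to 12.5 RPKM and PRELID1, which carries its precursor lipid, from 45.1 to 49.0; MXD3 lies antisense to 61.8% of the exon bases of PRELID1, so that its reads are uncertain. PRELID1 missed the threshold without empty-vector library 2 or 3 (0.0584 and 0.0615). With library size as the sole scaling 5 fell and 1 rose, without empty-vector library 3 4 fell and 1 rose, and with each other library dropped 3 or 4 fell and 2 or 3 rose. Of 14 genes of MICOS and cristae only CHCHD3, a MICOS subunit, passed (50.6 to 57.5 RPKM, adjusted p = 0.00817, limma). Of 10 transport genes the kinesin KIF5B rose from 65.3 to 74.2 RPKM and ARMCX1 fell from 6.59 to 5.13.

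In the list of outer-membrane and matrix abundance genes, which also holds COX4I1 of the inner membrane, 6 of 12 rose and none fell. Of all tested genes 16% rose and 16.3% fell. The median log2 fold change of the list was 0.17. The matrix chaperone HSPA9 rose from 127 ± 0.413 to 157 ± 6.28 RPKM (log2 fold change 0.38, adjusted p = 0.00185, limma) and ATP5F1A, a subunit of ATP synthase under its older name ATP5A1, from 5.48 to 6.23. ATP5F1A missed the threshold with empty-vector library 1, empty-vector library 2 or circAASS library 2 dropped (0.0606, 0.053 and 0.0529). With library size as the sole scaling 1 rose, and without empty-vector library 2 or circAASS library 2 the number was 1 as well; without empty-vector library 1 it was 3, without empty-vector library 3 it was 2 and without circAASS library 3 it was 4. Of 12 regulators of mitochondrial biogenesis TFB2M, a factor of mitochondrial transcription (12.5 to 16.7 RPKM), and YY1 (11.3 to 14.0) rose, and PERM1 fell from 0.432 to 0.245 but missed the threshold for 5 of the 6 libraries when that library was dropped (highest adjusted p 0.109). The share of reads from the mitochondrial genome was 8.86% to 9.03% with empty vector. It was 9.45%, 10.1% and 9.09% in circAASS libraries 1, 2 and 3. Whether this share goes with the levels of these lists was not tested.

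The 4 calls among the fusion and fission genes depended on which library was dropped. All 4 passed without circAASS library 1 (highest adjusted p 0.0378, limma), and without circAASS library 2 OMA1, FIS1, MIEF2 and MFN2 passed. Without empty-vector library 1 none of the 10 passed (limma), with 5 at an unadjusted p under 0.05, and without empty-vector library 3 none passed, with 4. Without empty-vector library 2 MIEF2 alone passed, and without circAASS library 3 OMA1 alone. Their directions held in all 14 alternative fits, with log2 fold changes of -0.96 to -0.47 for OMA1, -0.26 to -0.17 for FIS1, -0.38 to -0.24 for MIEF2 and 0.16 to 0.26 for MIEF1.

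**Figure D5:**
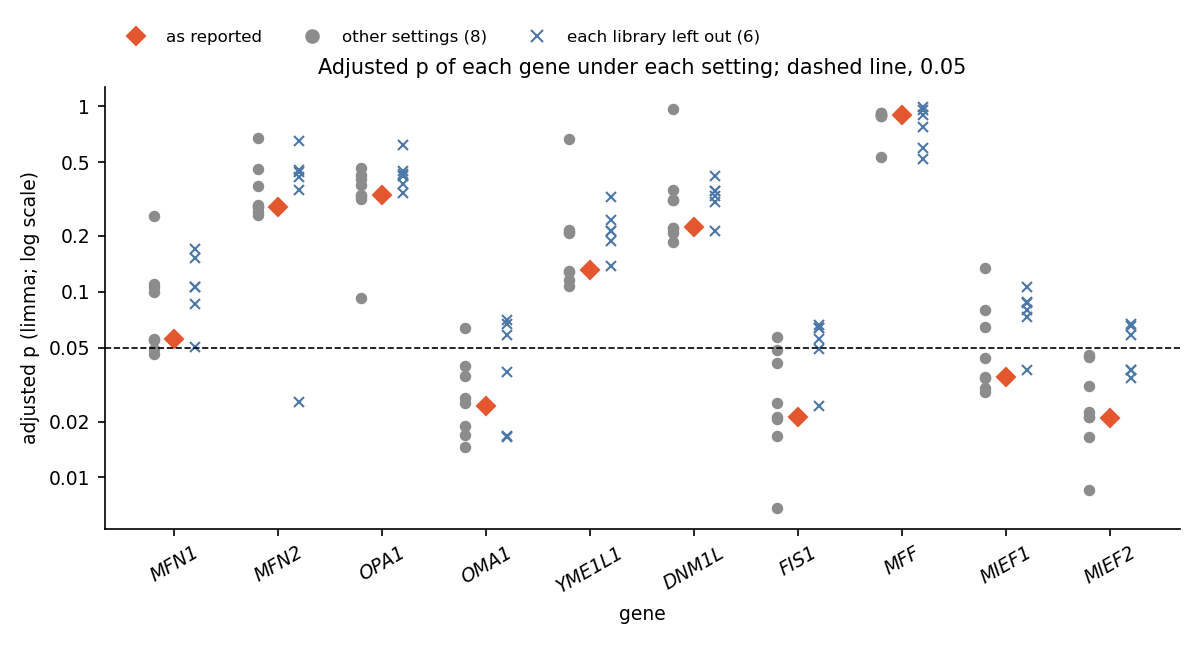
Adjusted p (limma, log axis) of each of the 10 genes in the fit as reported (diamonds), in 8 other settings (circles) and with each of the 6 libraries left out (crosses); the dashed line is 0.05. OMA1, FIS1, MIEF1 and MIEF2 have points on either side of the line, as do MFN1 and MFN2, and the highest values of the first 4 are 0.0706, 0.066, 0.134 and 0.0675.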

How the data were processed

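RNA of 6 HK-2 libraries was measured with a stranded mRNA kit, per the labels' protocols, and groups and repeat numbers come from the sample titles. The authors deposited RPKM, 1 column per library; per the submitters' processing notes the tools were Trimmomatic 0.36, featureCounts of Subread 1.5.1 and edgeR 3.12.1 with GRCh38. Not given in the sources used here are the aligner, the annotation version and the use of strand in counting. The 10 members and all lists were chosen with earlier results of these data known.

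Read numbers were recovered from the RPKM steps. With exon-union lengths of GENCODE 29, values of 22385 of 24697 genes (90.6%) were whole in all 6 libraries within 0.02 reads. All members except OPA1 were among them. For OPA1 and the other genes the smallest fitting length was taken, so that the reads of OPA1 rest on a fitted length. Names turned into dates (28) were left out. Genes with 10 reads (at the median depth) in 3 libraries and 15 in total were kept, 19350 in all; all 10 members passed. RPKM were divided by trimmed-mean factors from these reads. limma 3.58.1 (R 4.3.3), with trend and robust variance, tested log2(RPKM + 0.1), a scale that understates changes of low genes; p-values are two-sided. The fit was also run on simulated data, with fewer changed genes than passed here and without the rescaling. That run does not measure the error of the calls made here. Means ± SD are of deposited RPKM. Named were the 10 members, AASS, and per list all calls up to 4, otherwise the 2 smallest p in each direction, plus the 3 genes nearest to the member with the smallest p; the markers printed were picked with their values in view. Positions are from GENCODE 29, promoter windows from RefSeq. Alternatives were another pseudocount (1 or 0.01), scaling, filter or variance model, a repeat term, and leaving out each library. Python 3.11, pandas 2.3.3 and matplotlib 3.10.9 were used.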

Additional observations from a re-analysis of the deposited data

How the results depend on the processing

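The number of calls among the 10 genes was 4 as reported, 2 with no filter on low values (FIS1 and MIEF2), and 0 to 4 over the fits that left out a library; over the other settings it was 3 to 5. Among all tested genes 6243 passed as reported (3091 higher, 3152 lower), 4133 to 5674 with a library left out, the fewest without empty-vector library 2, and 2159 higher and 4023 lower with library size as the sole scaling. Among the genes of the lists 38 passed as reported and 21 to 34 with a library left out. MFF, which never passed, had log2 fold changes of -0.10 to 0.0487 with a library left out. With the repeat number as a replicate block 3 of the 10 genes passed (OMA1, FIS1 and MIEF2). MIEF1 missed the threshold in that fit at an adjusted p of 0.0799 (limma). In the same fit 32 genes of the lists and 5428 of all tested genes passed. The deviations of same-numbered libraries had correlations of -0.00534, -0.0240 and 0.0227 across genes, so that no shared deviation was seen. With 3 libraries per group this cannot decide whether the numbers pair the libraries. OMA1, with 111 to 363 reads, had the fewest reads of the 10 genes and the widest interval. Its coefficient of variation was 4.89% with empty vector and 29.3% with circAASS. The part of depth in this spread was not tested.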
